A study of Mus musculus with 7 samples.

Results

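The 10 genes described here belong to the common gamma chain, IL-4/IL-13 and IL-10 receptor systems and were measured in macrophages sorted from injured sciatic nerve. They are the ligands Il15 and Il10, the shared receptor chains Il2rg and Il10rb, and the ligand-specific chains Il7r, Il4ra, Il13ra1, Il21r, Il15ra and Il10ra. The 10 genes were picked by symbol out of the 23361 genes quantified, and all 10 had enough fragments to be tested. They were put together with earlier results of the same libraries known. The fold changes and adjusted p-values given for them therefore place them among all genes tested and are no independent evidence.

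The mice were of the wild-type inbred strain BALB/cJ, and their left sciatic nerve had been cut and repaired within an inert conduit. Cells that were Lin-F4/80+CD14+CD11b+CD16/32+ were sorted at day 5, day 14 or day 28 after repair, and no allele or drug distinguished the groups. The groups held 3 (day 5), 2 (day 14) and 2 (day 28) libraries, with 18027190 to 35247116 fragments assigned to genes. Uninjured nerve was not among the libraries, the age of the mice is not given in the sources used here, and the labels call the libraries independent biological replicates without saying how many mice each holds. The 8 macrophage markers examined summed to 16386 to 22460 FPKM per library. Cd3e of T cells had 1 to 5 fragments and Pax5 of B cells had 0 to 1, against a floor of 3 fragments. Other genes of the T and B cell lists were present in every library, with Cd2 at 3.57 to 13.6 FPKM and Cd79b at 4.38 to 10.3 FPKM. FPKM divides fragments by transcript length and by library size, so levels can be compared between genes. In bulk libraries, fewer cells that express a gene and less RNA per cell cannot be told apart.

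Receptors of this family have no enzymatic activity of their own. A cytokine brings a ligand-specific chain and a shared chain together, the Janus kinases bound to their tails are activated, and STAT proteins are phosphorylated and enter the nucleus. The common gamma chain, encoded by Il2rg, serves IL-2, IL-4, IL-7, IL-9, IL-15 and IL-21. IL-4 also signals through IL-4Rα paired with IL-13Rα1, the complex that IL-13 uses. IL-10 binds IL-10Rα, and IL-10Rβ completes that receptor as well as those of IL-22 and lambda interferons. In macrophages, IL-4 and IL-13 act mainly through STAT6 and drive alternative activation, and IL-10 acts mainly through STAT3 and restrains inflammatory genes.

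Il7r went the other way from most of the receptor chains. Its mean level at day 28 was 1.75 times that at day 5 and 2.35 times that at day 14, while Il4ra, Il21r, Il15ra and Il10rb fell between day 5 and day 28. Il2rg, the partner chain of the IL-7 receptor, stayed within a 1.47-fold range over the 7 libraries. The sequence upstream of the annotated start is shown for Il7r, which rose, for Il21r, whose fall held under every alternative tried, and for Il2rg, their shared partner chain. Each is the 250 bases before the RefSeq start on GRCm38.p6, read on the strand of the gene, from chr15:9529877-9530126 (minus strand) for Il7r, chrX:101268256-101268505 (minus strand) for Il2rg and chr7:125603179-125603428 (plus strand) for Il21r. Capitals mark the one match to the motifs searched.
Il7r: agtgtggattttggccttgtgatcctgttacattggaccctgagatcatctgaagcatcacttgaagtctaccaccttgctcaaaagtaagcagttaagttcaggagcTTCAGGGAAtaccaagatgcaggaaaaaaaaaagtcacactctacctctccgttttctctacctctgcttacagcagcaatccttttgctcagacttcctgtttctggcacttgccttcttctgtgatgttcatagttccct
Il2rg: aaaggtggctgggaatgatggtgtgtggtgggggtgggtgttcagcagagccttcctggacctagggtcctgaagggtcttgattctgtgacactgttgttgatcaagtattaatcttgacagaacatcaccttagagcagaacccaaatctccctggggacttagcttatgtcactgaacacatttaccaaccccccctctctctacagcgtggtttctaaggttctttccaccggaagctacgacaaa
Il21r: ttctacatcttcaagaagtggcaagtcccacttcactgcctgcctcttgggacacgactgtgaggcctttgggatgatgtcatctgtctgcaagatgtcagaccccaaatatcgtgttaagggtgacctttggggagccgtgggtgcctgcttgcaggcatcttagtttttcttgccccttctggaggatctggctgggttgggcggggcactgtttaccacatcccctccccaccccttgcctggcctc

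Searches for 4 short motifs were made on both strands. They were the STAT-type palindromes TTCNNNGAA and TTCNNNNGAA, the PU.1-type core GAGGAA and the AP-1-type TGANTCA. The Il7r window held TTCNNNGAA once, beginning 142 bases before the start, and 7.02% of 32851 RefSeq promoter windows of the same length held that motif. The Il2rg and Il21r windows held none of the 4 motifs, nor did the Il4ra and Il13ra1 windows, which are not printed. Il15ra had 2 windows, also not printed. GAGGAA began 212 and 196 bases before the start in 1 of them, and TGANTCA 30 bases before the start in the other. The other motifs occurred in 5.85% of windows for TTCNNNNGAA, 23.3% for GAGGAA and 6.75% for TGANTCA. A match is a description of letters only. The RefSeq start of Il7r lies inside the longer GENCODE gene, and 86 of the 250 bases printed for it overlap an annotated exon. Windows were found for 6 of the 10 genes.

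The level of the 10 genes spanned more than an order of magnitude. Averaged over the 7 libraries, the FPKM was 165 for Il10rb, 127.0 for Il2rg, 126.9 for Il10, 63.1 for Il10ra, 59.9 for Il4ra, 52.0 for Il7r, 16.4 for Il21r, 11.8 for Il13ra1, 6.56 for Il15 and 4.497 for Il15ra. Il10rb ranked at position 533 and Il15ra at position 7844 of 17326 genes with an FPKM above 0 in any library. Neighbours in this order overlapped in their range over the 7 libraries, with exceptions after Il7r and after Il13ra1. Every value of Il7r was above every value of Il21r, and the lowest Il13ra1 value (9.21) was just above the highest Il15 value (9.001).

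**Figure D1:**
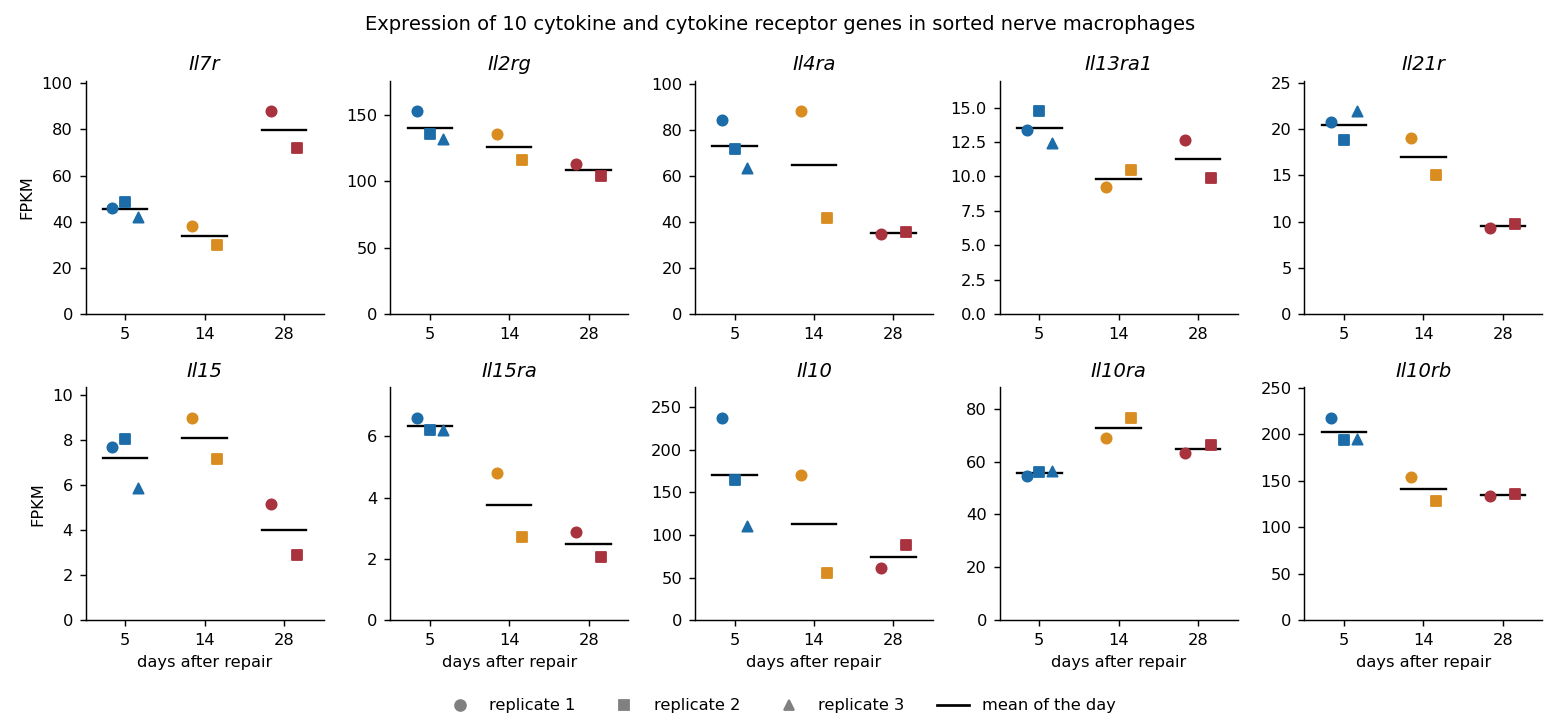
FPKM of the 10 genes in each of the 7 libraries, by day after nerve repair; points are libraries and horizontal bars are group means (3, 2 and 2 libraries). Il7r stands highest at day 28, at 71.8 and 87.8, while Il21r falls to 9.27 and 9.78.

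Il15 and Il10, the ligands of the group, were both detected in every library. Il15 (minus strand of chromosome 8, 82331632 to 82403222) encodes a cytokine that is presented by IL-15Rα to neighbouring cells. Its FPKM was 7.70, 8.08 and 5.87 in day 5 replicates 1, 2 and 3, 9.001 and 7.18 at day 14, and 5.17 and 2.89 at day 28. Days 5 and 14 overlapped, and both day 28 libraries were below all others. The log2 fold change from day 5 to day 28 was -0.80 and did not pass the threshold in edgeR (adjusted p = 0.0875). Il15 was called by DESeq2 (adjusted p = 0.0458) and by edgeR without an expression filter (0.0481). The value was -1.31 without day 28 replicate 1 and -0.47 without day 28 replicate 2, and only 60 to 216 fragments stood behind each level.

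Il10 (plus strand of chromosome 1, 131019845 to 131024974) had the widest range over the libraries of the 10 genes. The FPKM of this anti-inflammatory cytokine was 237, 164 and 111 at day 5, 171 and 55.7 at day 14, and 61.2 and 88.4 at day 28. The day 28 libraries were below all day 5 libraries, but the day 14 libraries lay on either side of them, 3.06-fold apart. With that spread, a log2 fold change of -1.18 ± 0.45 (SE) between days 5 and 28 was not called by edgeR (adjusted p = 0.104) or DESeq2. It was called without an expression filter (0.00623), with only the 2 days compared (0.00987), and without day 14 replicate 1 (0.00898) or replicate 2 (0.00993).

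The other ligands of these receptors were scarce. Il9 and Il21 were at 0 fragments in all 7 libraries, Il2 had 0 to 2, Il13 0 to 5, Il7 0 to 7 and Il4 0 to 16. Tslp, the second ligand that uses the IL-7 receptor α chain, had 8 to 51 fragments and was the only 1 of these 7 genes with enough to be tested. It was not called in any comparison. None of 6 other IL-10 family ligands could be tested, and Il19 led them with 0 to 5 fragments.

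Il2rg (minus strand of chromosome X, 101264378 to 101268255), the shared gamma chain, had an FPKM of 152.6, 135.8 and 131.9 at day 5, 135.9 and 116.0 at day 14, and 112.7 and 104.0 at day 28. The day 28 libraries were the lowest, and days 5 and 14 overlapped. The log2 fold change from day 5 to day 28 was -0.36 ± 0.12 (SE), which was not called by edgeR (adjusted p = 0.0822). DESeq2 called it (0.0455), as did edgeR with only the 2 days compared (0.0433) and without day 14 replicate 1 (0.0401) or replicate 2 (0.0414).

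Il10rb (plus strand of chromosome 16, 91406164 to 91425834), the shared chain of the IL-10 family, was at 217, 193 and 195 FPKM at day 5, 154 and 128 at day 14, and 133 and 136 at day 28. All 3 day 5 libraries were above all others, and days 14 and 28 overlapped. Il10rb fell by 0.57 on the log2 scale from day 5 to day 28 (SE 0.12, adjusted p = 0.0177). The difference between days 5 and 14 was of similar size, at -0.51 ± 0.12 (SE), with an adjusted p of 0.0515 in edgeR and 0.00462 in DESeq2. The day 28 call was lost without any single library of day 5 or day 28, at adjusted p-values of 0.0507 to 0.101.

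Il7r (minus strand of chromosome 15, 9505788 to 9530176) encodes IL-7Rα, which forms the IL-7 receptor with the gamma chain and the TSLP receptor with Crlf2. Its FPKM was 46.0, 48.6 and 42.0 in day 5 replicates 1, 2 and 3, 37.9 and 30.1 at day 14, and 87.8 and 71.8 at day 28. The groups did not overlap: day 14 was lowest and day 28 highest. Il7r rose by 1.24 ± 0.16 (SE, log2) from day 14 to day 28 (adjusted p = 0.0387) and by 0.82 ± 0.14 from day 5 to day 28 (adjusted p = 0.00665). The difference between days 5 and 14, -0.41 ± 0.14, was not called (adjusted p = 0.125). Each value rested on 2033 to 10213 fragments.

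The rise of Il7r from day 14 to day 28 was 1 of only 8 calls among 12858 genes. The other genes called were Igf2bp2, Fcrl5, Treml2, G0s2, Trpm2, Chst11 and Stap1. The change of Il7r was positive when each library was left out in turn, at 1.08 to 1.41, but it was not called without day 5 replicate 1 (adjusted p = 0.0703), day 5 replicate 2 (0.0813), day 5 replicate 3 (0.0894) or day 28 replicate 1 (0.224). The rise from day 5 to day 28 was lost without day 28 replicate 1 alone (0.67, adjusted p = 0.0636).

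Crlf2, the other partner of IL-7Rα, was abundant and not called. Its FPKM was 91.7 ± 5.57 (SD, n = 3) at day 5, 110 ± 6.06 (n = 2) at day 14 and 86.3 ± 14.6 (n = 2) at day 28. Within a library, Il7r FPKM divided by Il2rg FPKM was 0.301, 0.358 and 0.318 at day 5, 0.279 and 0.259 at day 14, and 0.779 and 0.690 at day 28. The day 28 ratios were above all others. These are ratios of RNA levels and do not measure receptors at the surface.

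The day 28 libraries, which had the most Il7r, also had more RNA of Cd2 and Ccr7 than the day 5 libraries. No other tested gene of the T cell and dendritic cell lists was called in any comparison. Cd28, Lck and Zbtb46 had their highest mean at day 14, Flt3 at day 5, and Cd209a, Xcr1 and Clec9a at day 28. The T cell list summed to 4.38 to 5.79 FPKM at day 5, 7.08 to 14.3 at day 14 and 12.1 to 14.3 at day 28, and Cd2 made up 82.6% of it. Cd3e, Cd3d and Cd3g, which define T cells, had 0 to 10 fragments in every library, and Trat1 was at 0. The dendritic cell list summed to 8.18 to 13.04, 10.8 to 24.9 and 19.8 to 30.4 FPKM at days 5, 14 and 28, and Ccr7 made up 65.0% of it. Day 14 replicate 2 had a T cell sum of 14.3 and the lowest Il7r of the 7 libraries. The dendritic cell sum was 24.9 in day 14 replicate 1 and 19.8 in day 28 replicate 1, the library with the most Il7r. Innate lymphoid and NK markers summed to 0.358 to 2.75 FPKM. The sort excluded CD3e+ cells, and the part of these cell types in the Il7r values was not tested.

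**Figure D2:**
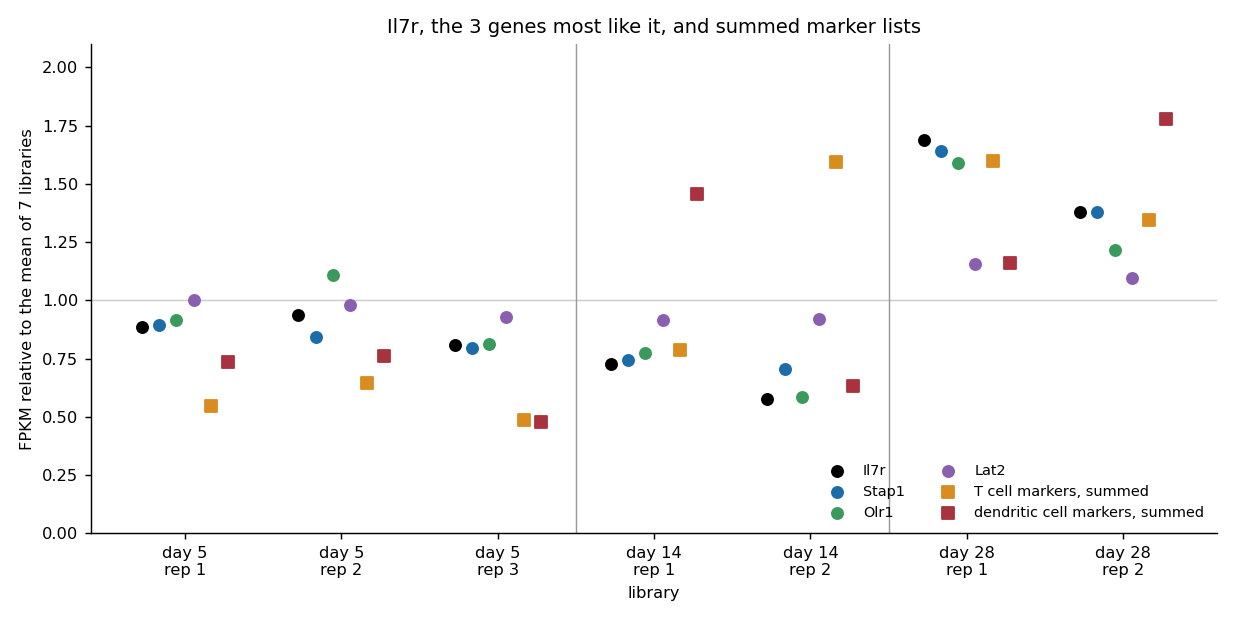
FPKM of Il7r, of the 3 genes whose pattern was most like it (circles) and of 2 summed marker lists (squares), each divided by its mean over the 7 libraries; vertical lines separate the days. Il7r, Stap1 and Olr1 are highest in the day 28 libraries, and the T cell marker sum is as high in day 14 replicate 2, where Il7r is lowest.

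The genes most like Il7r over the 7 libraries were Stap1 (Pearson r 0.973 of log2(FPKM + 1)), Olr1 (0.971) and Lat2 (0.963), among 7555 genes with a mean of at least 5 FPKM. Stap1, an adaptor protein, had 28.5, 26.8 and 25.4 FPKM at day 5, 23.6 and 22.4 at day 14, and 52.3 and 44.0 at day 28. An r above 0.95 was reached by 5 genes for Il7r, 5 for Il15, 9 for Il13ra1 and 25 for Il10ra. The other members had 90 to 243 such genes. The correlations are descriptions over 7 libraries that fall into 3 days.

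Il4ra (plus strand of chromosome 7, 125552120 to 125579474), the IL-4 and IL-13 receptor α chain, had an FPKM of 84.2, 71.8 and 63.7 at day 5, 88.1 and 41.5 at day 14, and 34.7 and 35.5 at day 28. Both day 28 libraries were below all others, and day 14 held the highest library together with a low one. Il4ra fell by 1.05 on the log2 scale from day 5 to day 28 (SE 0.27, adjusted p = 0.0314). That call was lost without any single day 5 or day 28 library (adjusted p = 0.0556 to 0.172). From day 14 to day 28 the log2 fold change was -0.88, which edgeR did not call (adjusted p = 0.264) and DESeq2 did (0.0450).

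Il13ra1 (plus strand of chromosome X, 36112110 to 36171259) completes the receptor for IL-13 and was not called in any comparison. Its FPKM was 13.3, 14.7 and 12.4 at day 5, 9.21 and 10.5 at day 14, and 12.6 and 9.90 at day 28. Day 14 was below day 5 without overlap (log2 fold change -0.45, adjusted p = 0.101), while day 28 overlapped both. Il4ra FPKM divided by Il13ra1 FPKM was 4.88 to 6.31 at day 5, 3.97 and 9.56 at day 14, and 2.74 and 3.58 at day 28. The decoy receptor gene Il13ra2 had 0 to 2 fragments.

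Il21r and Il15ra complete the ligand-specific chains of the gamma family. Il21r (plus strand of chromosome 7, 125603429 to 125633570), the receptor chain for IL-21, had 20.8, 18.8 and 21.9 FPKM at day 5, 19.1 and 15.0 at day 14, and 9.27 and 9.78 at day 28. Days 5 and 14 overlapped and day 28 was far below them. Il21r fell by 1.09 on the log2 scale from day 5 to day 28 (SE 0.14, adjusted p = 0.00200), and this was called under all 14 alternatives tried, with adjusted p-values up to 0.0321. From day 14 to day 28 its log2 fold change was -0.83 (adjusted p = 0.0742 in edgeR, 0.000946 in DESeq2). No Il21 fragment was found in any library. B cell markers summed to 6.62 to 9.40, 6.56 to 11.3 and 4.58 to 5.33 FPKM at days 5, 14 and 28. Cd79b made up 94.0% of that sum, and Pax5 had 0 to 1 fragments. Endothelial markers summed to 15.1 to 26.7, 7.48 to 13.6 and 3.76 to 6.88 FPKM, and Kdr made up 49.8% of the sum. From day 5 to day 28, Kdr and Pecam1 were called lower and Cdh5 and Esam were not called. Tek of the same list was called higher (log2 fold change 4.63), at 0 to 46 fragments. The part of such cells in the fall of Il21r was not tested. Il21r starts downstream of Il4ra on the same strand of chromosome 7.

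Il15ra (plus strand of chromosome 2, 11705290 to 11734317), which holds IL-15 at the cell surface, had 6.61, 6.19 and 6.21 FPKM at day 5, 4.81 and 2.70 at day 14, and 2.89 and 2.06 at day 28. All day 5 libraries were above the rest. Il15ra fell by 1.31 on the log2 scale from day 5 to day 28 (SE 0.28, adjusted p = 0.0164). The call was lost without day 5 replicate 1 (adjusted p = 0.0609), day 28 replicate 1 (0.0776) or day 28 replicate 2 (0.0852), and each value rested on 60 to 231 fragments. Il15 FPKM divided by Il15ra FPKM was 0.945 to 1.304 at day 5, 1.87 and 2.66 at day 14, and 1.79 and 1.40 at day 28.

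Il2ra and Il2rb, the remaining chains for IL-2 and IL-15, were scarce, at 10 to 47 and 5 to 51 fragments, and Il9r had 0 to 3. Of 10 partner receptor genes examined, 5 could be tested. None was called by edgeR in any comparison with the expression filter and all 7 libraries. In each comparison 1 to 3 were past an unadjusted p of 0.05. DESeq2 called 1, Il20rb, for day 28 vs day 5. There edgeR also called 1 without an expression filter and 1 with only the 2 days compared. For day 14 vs day 5 edgeR called 1 without an expression filter. Calls were also gained in some fits without a day 14 library, which keep 1 library of that day.

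Il10ra (minus strand of chromosome 9, 45253837 to 45269149), the ligand-binding chain for IL-10, was higher at day 14 than at day 5. Il10rb was lower at day 14 than at day 5. The FPKM of Il10ra was 54.4, 56.0 and 56.5 at day 5, 68.9 and 76.5 at day 14, and 63.3 and 66.3 at day 28. The 3 days did not overlap, with day 14 the highest. The log2 fold change from day 5 to day 14 was 0.40 ± 0.11 (SE) and was not called by edgeR (adjusted p = 0.0657), whereas DESeq2 called it (0.0224). Il10rb FPKM divided by Il10ra FPKM was 3.998, 3.45 and 3.45 at day 5, 2.24 and 1.68 at day 14, and 2.11 and 2.05 at day 28. Every day 5 ratio was above every later one. The summed neutrophil markers were also highest at day 14, at 583 to 598 FPKM against 153 to 356 at the other days, and S100a9 made up 48.3% of the sum. Csf3r of the same list was at 66.6 to 72.7 FPKM at day 5 and 45.1 to 70.5 at day 14. The sort excluded Ly6G+ cells, and the part of neutrophils in the Il10ra values was not tested.

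**Figure D3:**
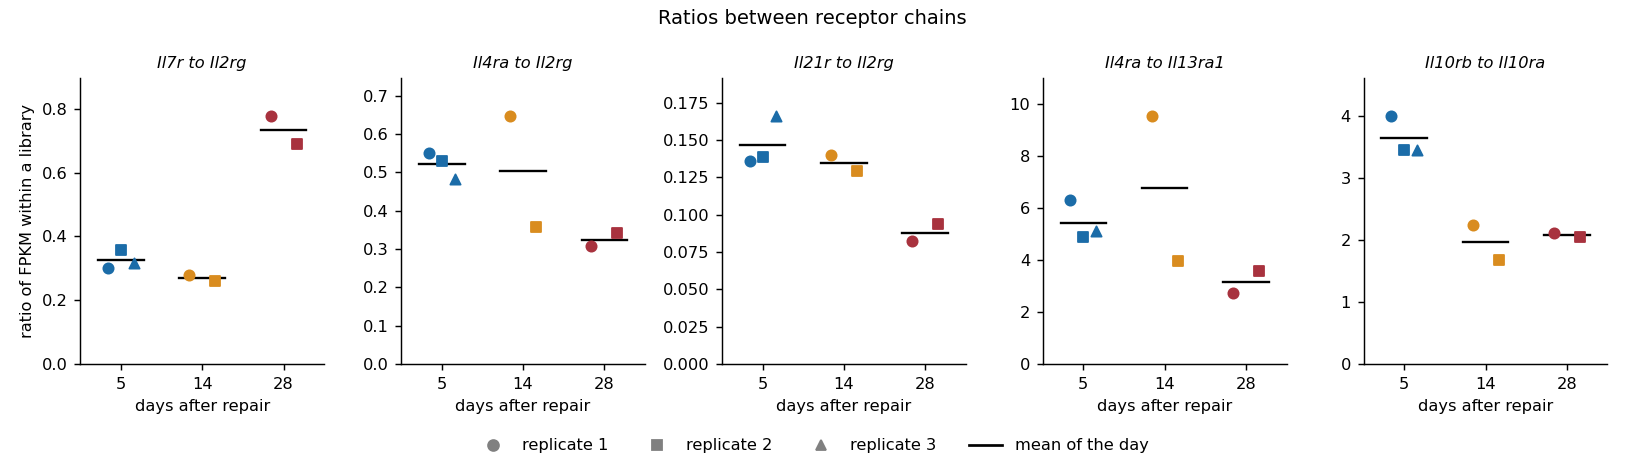
Ratios of FPKM between receptor chains within each library, by day after repair; points are libraries and bars are means of the day. Il7r to Il2rg is 0.690 and 0.779 at day 28 against 0.259 to 0.358 before, and Il10rb to Il10ra is 3.45 to 3.998 at day 5 against 1.68 to 2.24 later.

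Over the whole group, 5 of 10 genes were called between days 5 and 28 (1 higher, 4 lower), against 15.2% of all genes tested (7.74% higher, 7.51% lower). Between days 14 and 28, 1 of 10 was called, against 0.0622% of all genes (0.0311% in each direction), and between days 5 and 14, 0 of 10 by edgeR, against 4.78% (2.84% higher, 1.94% lower). At an unadjusted p under 0.05, 5 of the 10 were past the threshold between days 5 and 14 (24% of all genes), 4 for day 28 vs day 14 (12.2%) and 8 for day 28 vs day 5 (31.5%). Between days 5 and 14, DESeq2 called 2, Il10ra and Il10rb, and limma none. The 5 calls between days 5 and 28 became 2 without day 5 replicate 1, 3 without day 5 replicate 2 or 3, 1 without day 28 replicate 1 and 2 without day 28 replicate 2. The rule had these values in view, so the counts describe the genes chosen. The median log2 fold change of the 10 was -0.34 for day 14 vs day 5, beside 0.027 over all genes tested, -0.40 for day 28 vs day 14, beside 0.0093, and -0.69 for day 28 vs day 5, beside 0.033. The comparisons share libraries.

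**Figure D4:**
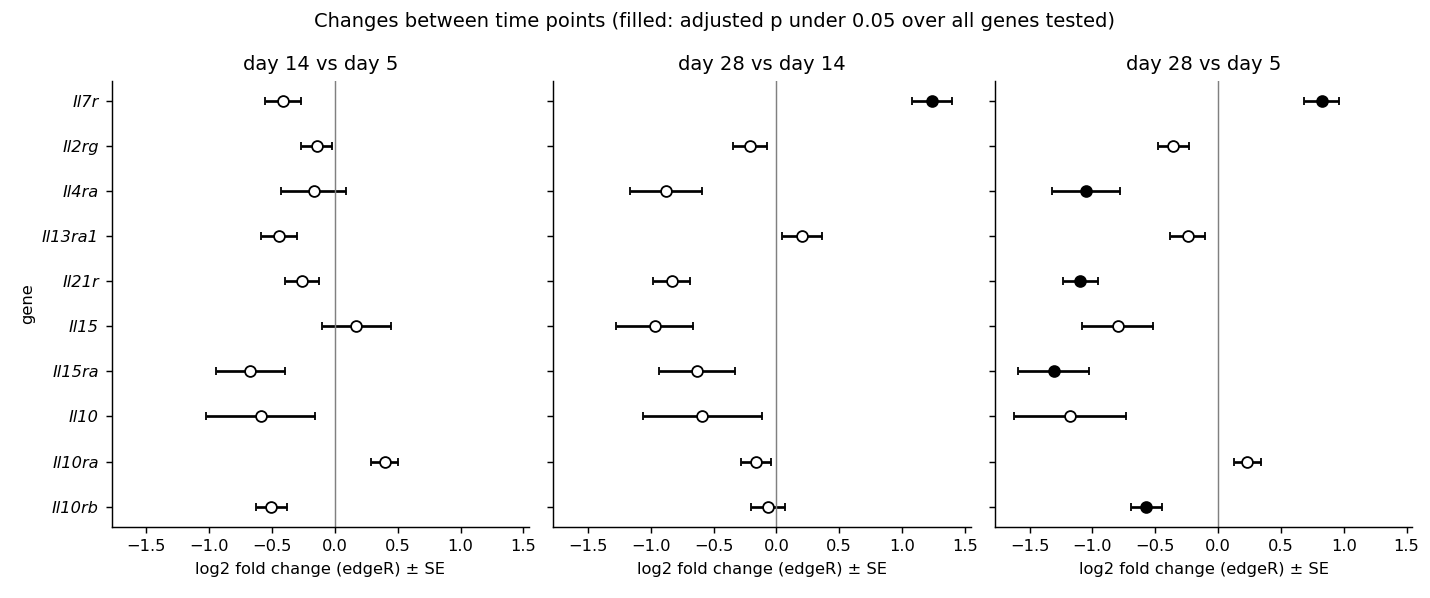
Log2 fold changes of the 10 genes in the 3 comparisons from the edgeR fit; bars are standard errors and filled points have an adjusted p under 0.05. Il7r is filled on the right in the 2 comparisons with day 28, and Il4ra, Il21r, Il15ra and Il10rb are filled on the left for day 28 vs day 5.

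Overlap between the libraries of a pair of days was also counted, without a test. Between days 5 and 28, 9 of the 10 genes had no overlap between libraries (2 higher, 7 lower at day 28), where 51.5% of all genes tested had none (26% higher, 25.6% lower). The corresponding counts were 5 of 10 for day 14 vs day 5 (1 higher, 4 lower), where 43.2% of all genes had no overlap (21.9% higher, 21.4% lower), and 6 of 10 for day 28 vs day 14 (1 higher, 5 lower), where 39% had none (19.3% higher, 19.7% lower).

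The day 14 libraries differed for several of these genes. Replicate 1 exceeded replicate 2 by 3.06-fold for Il10, 2.12-fold for Il4ra and 1.78-fold for Il15ra, while the ratio was 0.88 to 1.27 for the other 7. Replicate 1 lay nearer the day 5 mean than the day 28 mean for 7 of the 10 genes and replicate 2 for 3 of 10. Over all 12858 genes tested the shares were 54.45% and 36.4%. Those shares used log2(FPKM + 1), whereas the 10 genes were placed on log2 FPKM. Calls were gained between days 5 and 14 without replicate 1, and between days 14 and 28 without replicate 2, for the 10 genes and over all genes. Such fits keep 1 day 14 library, assumed to vary like the other groups. The median log2 fold change of the 10 for day 14 vs day 5 was -0.51 without replicate 1, beside 0.027 over all genes. Without replicate 2 it was -0.070, beside 0. For day 28 vs day 14 it was -0.13 without replicate 1, beside 0.015, and -0.66 without replicate 2, beside 0.025. Fibroblast markers summed to 175 FPKM in day 14 replicate 1 and 62.8 in replicate 2, against 22.5 to 60.9 in the other days. The sort excluded Thy1.2+ cells, the marker used for fibroblasts, and the part of fibroblasts in these values was not tested.

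The genes whose pattern was most like the other called members were Sbno2 (r 0.992), Ly6c2 (0.992) and Chmp4b (0.990) for Il4ra, and Pcp4l1 (0.990), Cfp (0.990) and Drap1 (0.988) for Il21r. For Il15ra they were Tmem120a (0.997), Wfdc17 (0.993) and Alkbh5 (0.992), and for Il10rb Mob1a (0.996), Atp6v0d1 (0.994) and Plekhb2 (0.994). Ly6c2, a marker of inflammatory monocytes, was also higher in day 14 replicate 1 than in replicate 2. Its FPKM was 106.7, 72.8 and 57.1 at day 5, 114 and 18.2 at day 14, and 12.2 and 8.31 at day 28.

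Among the kinases and STATs that carry signals from these receptors, Jak3 had the smallest adjusted p. JAK3 binds the gamma chain. Of 15 genes of JAK-STAT signalling and its feedback, all tested, 4 fell and 1 rose between days 5 and 28. Over all genes tested, 7.51% fell and 7.74% rose. None of the 15 was called in the other comparisons by edgeR. At an unadjusted p under 0.05 there were 3 for day 14 vs day 5 (24% of all genes) and 3 for day 28 vs day 14 (12.2%). DESeq2 called 0 for day 14 vs day 5 and 2 for day 28 vs day 14. Without an expression filter, edgeR called 1 and 3 in these comparisons. With the replicate block it called 3 for day 28 vs day 5. From day 5 to day 28, Jak3 fell by 1.004 on the log2 scale (SE 0.17, adjusted p = 0.00633), Stat3 by 0.84 (adjusted p = 0.0114) and Socs3, a feedback inhibitor, by 1.61 (adjusted p = 0.0291). Socs2, another inhibitor of the family, rose by 1.45 (adjusted p = 0.0193). The median of the list was -0.28, beside 0.033 over all genes. Stat6, which carries the IL-4 signal, was at 77.3 ± 5.24 (SD, n = 3), 74.2 ± 2.46 (n = 2) and 73.3 ± 0.62 FPKM (n = 2) at days 5, 14 and 28, with a log2 fold change of -0.06 (adjusted p = 0.748). The 5 calls became 0 without day 28 replicate 1, 2 without day 5 replicate 1 or replicate 2, and 3 without day 28 replicate 2. Calls were gained between days 5 and 14 without day 14 replicate 1, and between days 14 and 28 without day 14 replicate 2, as over all genes.

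Genes known to respond to IL-4 and IL-13 were called in both directions. Like the JAK-STAT and IL-10 lists, this list was chosen with earlier results of these libraries known. Its counts are a description and no independent evidence. Of 18 tested, 8 rose and 3 fell from day 5 to day 28, where 7.74% and 7.51% of all genes tested did. Those that rose included Retnla by 3.85, Mgl2 by 2.13 and the transcription factor Irf4 by 1.94 on the log2 scale, with adjusted p-values of 0.000931, 0.00191 and 0.00129. Slc7a2, Ccl24, Pdcd1lg2, Cdh1 and Myc rose by 1.88, 1.52, 1.35, 1.02 and 0.90. Arg1, which encodes arginase, fell by 1.35, Tfec by 1.10 and the mannose receptor gene Mrc1 by 0.73. The median of the list was 0.96, beside 0.033 over all genes, while Il4ra itself fell. From day 5 to day 14, 5 rose (Retnla 4.10, Mgl2 1.64, Irf4 1.06, Myc 0.97, Ccl24 0.65) and Arg1 and Tfec fell, with a median of 0.63. Over all genes, 2.84% rose and 1.94% fell between these days, with a median of 0.027. None of the 18 was called by edgeR from day 14 to day 28. There DESeq2 called 3, as did edgeR without an expression filter, and 3 had an unadjusted p under 0.05 (12.2% of all genes). For day 14 vs day 5, 9 of the 18 were called with DESeq2 and 10 without an expression filter. Only 3 were called with either limma fit, 4 with only the 2 days compared and 0 with the replicate block. Ccl24 and Tfec were called least often there, in 4 of 14 alternatives each. For day 28 vs day 5 the replicate block called 7, and Cdh1 was called least often (5 of 14 alternatives). The 11 calls of day 28 vs day 5 became 7 without day 5 replicate 1 or replicate 3 and 6 without either day 28 library. The 7 calls of day 14 vs day 5 became 2 without day 5 replicate 1, 3 without day 5 replicate 2 or 3, and 4 without either day 28 library.

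Of 10 genes known to respond to IL-10, 4 fell and none rose between days 5 and 28, where 7.51% and 7.74% of all genes tested did. Socs3, which is also in the JAK-STAT list, fell by 1.61, Bcl3 by 1.11, Sbno2 by 1.03 and Ddit4 by 0.75. The median was -0.77, beside 0.033 over all genes. Ddit4 was the single call between days 5 and 14, where it fell by 1.11 (edgeR adjusted p = 0.0209) and 1.94% of all genes fell. None was called by edgeR between days 14 and 28. There 5 had an unadjusted p under 0.05 (12.2% of all genes), DESeq2 called 1 and edgeR without an expression filter called 3. With the replicate block, edgeR called none of the 10 in any comparison. The 4 calls became 0 without day 5 replicate 1 or replicate 2 and 2 without day 5 replicate 3. Over all genes, the 1960 calls became 820, 916 and 967 without day 5 replicates 1, 2 and 3. The 4 calls were also lost without either day 28 library, which keeps 1 library of that day. Calls were gained without either day 14 library, as over all genes. The single call between days 5 and 14 was lost without any single day 5 library. Calls were gained in that comparison without day 14 replicate 1, and between days 14 and 28 without day 14 replicate 2, as over all genes.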

How the data were processed

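PolyA+ RNA of sorted macrophages was sequenced with single-end reads in 7 libraries. The authors trimmed reads with cutadapt 1.8, mapped them to mm10 with TopHat2 2.0.13 and quantified genes with Cuffdiff 2.2.1. How multi-mapped reads and strand were treated is not given in the sources used here, so overlapping genes and paralogs are uncertain. The expected counts deposited by the authors are fragments per gene, of which 0.947% were not whole. The deposited scaled signal is those fragments times 1 factor per library and entered no test. The deposited FPKM values adjust fragments for transcript length and library size. No value of the 10 genes had a failed quantification status.

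Rounded fragments were tested by the quasi-likelihood F test of edgeR (version 4.0.16, under R 4.3.3), with TMM scaling and filterByExpr over the 3 days. All 7 libraries, grouped by the day in their labels, entered 1 fit with day as the only factor. P-values were adjusted by Benjamini-Hochberg over 12858 genes in each of 3 comparisons, and an adjusted p under 0.05 was a call. Standard errors were derived from the F statistic. The depth was 18027190 to 35247116 fragments, and a floor of 3 fragments covers counting error only. Alternatives used DESeq2 1.42.0, RLE size factors, no expression filter, limma 3.58.1 on log2(FPKM + 1) or log2(FPKM + 0.1), only the days compared, the replicate number as a block, and each library left out. The fit was also run on simulated data for day 14 and day 28 against day 5, with 200 genes changed. Day 28 vs day 14 was not simulated, and the outcome is not reported here. The genes named are the 10 members, the called genes of pathway lists, and for each called member the 3 genes with the highest Pearson r among tested genes with a mean of at least 5 FPKM. The members and lists were chosen with earlier results of these data known. Coordinates are GENCODE genes on GRCm38 matched by symbol, and promoters are from RefSeq on GRCm38.p6. Tables and plots were made with Python 3.11.15, pandas 2.3.3, numpy 2.4.6 and matplotlib 3.10.9. Some genes of the lists are counted but not reported here by name.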

Additional observations from a re-analysis of the deposited data

How the results depend on the processing

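With RLE size factors the number of the 10 genes called was as in the TMM fit. Between days 5 and 14 it was 0, but 2 with DESeq2 and 1 without an expression filter. As over all genes, it rose without day 14 replicate 1, and it was 0 without any single day 5 library. Between days 14 and 28 it was 1, but 3 with DESeq2 or without an expression filter (adding Il21r and Il4ra). With either limma fit, with only the 2 days compared or without any single day 5 library it was 0. As over all genes, it rose without day 14 replicate 2. Between days 5 and 28 it was 5, but 7 with DESeq2 (adding Il15 and Il2rg), 7 without an expression filter (adding Il10 and Il15), 7 with only the 2 days compared (adding Il10 and Il2rg), and 1 to 7 with a library left out (1, Il21r, without day 28 replicate 1). The fit with the replicate block called 0, 0 and 3 of the 10 genes in these comparisons, and 6, 0 and 735 of all genes against 614, 8 and 1960. Replicate numbers were not shown to pair the libraries: the deviations of same-numbered libraries correlated at 0.175 and 0.0449 for days 5 and 14, -0.0538 for days 14 and 28, and 0.0842 and 0.0249 for days 5 and 28, over 7613 genes.

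Of 420 log2 fold changes of the 10 genes under the alternatives, 367 kept direction and side of the threshold, 25 gained a call, 24 lost one and 4 changed sign. The sign changes came from leaving out a day 14 library: Il4ra (-0.80 to 0.27) and Il10 (-1.60 to 0.0054) for day 14 vs day 5, and Il10 (-1.18 to 0.42) and Il10rb (-0.19 to 0.067) for day 28 vs day 14, as ranges over the libraries left out. DESeq2 called 1366, 332 and 2485 of all genes, and the cause of these differences was not tested. Il10 had the largest standard error of the 10 in each comparison (0.44 to 0.47), and Il15 and Il15ra had the fewest fragments (60 to 231).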

Other observations

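Receptor genes at low level outside the 10 were also recorded. Il20rb, a chain of the IL-20 family receptors, was at 0.78, 2.02 and 2.39 FPKM on average at days 5, 14 and 28, and its log2 fold change from day 5 to day 28 was 1.64 ± 0.50 (SE, adjusted p = 0.0551). Ifnlr1, which joins IL-10Rβ in the lambda interferon receptor, had 2 to 42 fragments per library. Il1rl1, the IL-33 receptor gene, had 26 to 176 fragments and a log2 fold change of 1.13 from day 5 to day 28 (adjusted p = 0.170).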
